A study of Mus musculus with 9 samples.

Results

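The 10 genes described here, Hormad1, Hormad2, Brca1, Atm, Atr, Chek1, Chek2, Trp53, Trp63 and H2afx, encode the components that recognise unsynapsed chromosome axes and broken DNA in meiotic germ cells. They were chosen by name, were all found among the 28052 genes of the UMI matrix, and 9 of them had enough counts to be tested (H2afx did not). The study compared oocytes of mouse females with different sex chromosomes at 18 dpp. RNA was taken from 3 pools each of XX, XO and XY oocytes, and each pool held 30 oocytes in the growth phase, 10 of 50–55 µm and 20 of 55–60 µm in diameter. The XY females carried the Y chromosome of the B6.YTIR strain on the C57BL/6J (B6) background and developed ovaries, and the XX females were their littermates. The XO females came from another cross, of B6 females with Paf carrier males (a C3H/HeSnJ stock bred onto B6), so that the absence of the second sex chromosome and the cross cannot be told apart in XO oocytes. The number of females behind each pool was not given in the sources used here, and p-values measure the spread between the pools.

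In meiotic prophase, HORMAD1 and HORMAD2 coat the axes of chromosomes that have not synapsed. Together with BRCA1 they bring the kinase ATR to these axes, where it phosphorylates the histone variant H2AX. ATM is the kinase that responds to double strand breaks. ATR signals mainly through CHK1 and ATM through CHK2, and CHK2 acts on p53 and on TAp63, the form of p63 that guards the quality of oocytes. XX oocytes have a pair of X chromosomes that can synapse, whereas the single X of an XO oocyte and the X and Y of an XY oocyte largely lack a partner. The growing oocytes studied here were past the stage at which synapsis takes place, and the transcript levels say nothing of the phosphorylation by which these proteins act.

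Levels are given as normalized CPM, the number of 5′ UMIs of a gene divided by the total of gene UMIs and a spike-in factor of the sample, scaled as CPM. Each UMI marks the 5′ end of 1 transcript, and thus the values do not grow with transcript length. Samples held 2130145 to 3157338 gene UMIs, and 1 UMI was worth 0.302 to 0.565 normalized CPM. Pool XO1 stood apart from the other XO pools. Its Spearman coefficient over the 10993 tested genes was 0.676 with XO2 and 0.616 with XO3, whereas it was 0.932 with XY1. With the XX pools the coefficients were 0.776 to 0.880 for XO1, 0.824 to 0.916 for XO2 and 0.766 to 0.878 for XO3. By these, XO3 was no nearer to the XX pools than XO1. Mitochondrial transcripts made up 13.1% of the UMIs in XO1 and 10.8% in XY1 against 2.65 to 6.02% in the other 7 pools. Oocyte markers had a summed level of 18893 normalized CPM in XO1, 19897 in XY1 and 27243 to 43742 in the others. Of the 14, Sohlh1 was at or near 0 in every pool, and Figla was at 0.518 in XO1 (1 UMI) against 6.97 to 17.5 in the others. Zp2 was at 4919 in XO1 and 10049 in XY1 against 14837 to 17150 in the others. Oosp1 went the other way, at 9137 in XO1 and 5572 in XY1 against 2225 to 4242 in the others. For some other oocyte markers it was XO2 and XO3 that stood apart. Gdf9 was at 869 in XO2 and 2432 in XO3 against 234 to 350 in the others, with 339 in XO1. Nobox was at 522 and 1138 in XO2 and XO3 against 51.6 to 185, and Ooep at 3073 and 5114 against 467 to 1197. Zp1 and Zp3 were also highest in XO2 and XO3. Granulosa markers summed to 49.0 to 93.0 normalized CPM, and the defining markers Amh and Foxl2 were not listed. Ddx3y and Eif2s3y, both Y-linked, were at or over 93.0 normalized CPM in every XY pool and stayed at or under 1.04 in every XX and XO pool.

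The 10 genes lie on 5 autosomes, and none is X-linked. Hormad1 is at chr3:95559677-95587671, Chek2 at chr5:110839979-110874145 and Trp63 at chr16:25683763-25892102, all on the plus strand of GRCm38. Chromosome 9 holds Chek1 (chr9:36708482-36727065, minus), H2afx (chr9:44334694-44336077, plus), Atm (chr9:53439149-53536740, minus) and Atr (chr9:95857597-95951781, plus). Chromosome 11 holds Hormad2 (chr11:4345814-4441105, minus), Trp53 (chr11:69580359-69591873, plus) and Brca1 (chr11:101488764-101551955, minus). The start of Chek2 faces that of Hscb, on the other strand, at a distance of 202 bp. Brca1 and Nbr1 face each other in the same way at 194 bp, Trp53 and Wrap53 at 104 bp, and Atm and Npat at 307 bp. The 5′ ends of these pairs do not overlap, whereas exons of Atr overlap those of the antisense gene Gm16794, which collected 361 UMIs over the 9 samples, and only the stranded counting separates them.

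The sequences before the starts of Hormad1, Hormad2 and Chek2 are shown because the comparisons below turn on the paired HORMA genes and on Chek2. They were taken from RefSeq (GRCm38.p6) and run 5′ to 3′ on the strand of the gene up to the first exon of Gencode, or between the facing exons of Chek2 and Hscb. Capitals mark the motifs found among the 8 that were searched on both strands.
Hormad1, chr3:95559427-95559676, plus strand: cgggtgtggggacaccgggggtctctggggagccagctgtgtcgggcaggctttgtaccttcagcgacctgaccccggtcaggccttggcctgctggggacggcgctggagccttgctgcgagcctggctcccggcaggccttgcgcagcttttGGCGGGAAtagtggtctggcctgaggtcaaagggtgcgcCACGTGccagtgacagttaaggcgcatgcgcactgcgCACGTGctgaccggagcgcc
Hormad2, chr11:4441106-4441332, minus strand: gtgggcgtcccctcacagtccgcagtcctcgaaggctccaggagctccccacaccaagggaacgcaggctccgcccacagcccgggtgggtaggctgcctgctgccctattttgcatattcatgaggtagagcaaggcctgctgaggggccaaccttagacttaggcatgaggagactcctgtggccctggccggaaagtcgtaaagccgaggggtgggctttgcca
Chek2, chr5:110839778-110839978, plus strand: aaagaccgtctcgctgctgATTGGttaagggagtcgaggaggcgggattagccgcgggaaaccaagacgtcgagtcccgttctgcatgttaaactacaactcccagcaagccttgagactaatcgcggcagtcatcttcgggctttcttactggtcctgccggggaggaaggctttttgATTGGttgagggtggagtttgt
In Hormad1 the capitals are 1 GGCGGGAA, a sequence bound by E2F factors, and 2 copies of the E-box CACGTG. In Chek2 they are 2 CCAAT boxes, both read on the other strand, and none of the 8 motifs was found in Hormad2.

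Among 27025 promoters of the same 250 bp window, CCAAT was present in 34.5%, GGCGGGAA in 1.88%, TTTGGCGC in 0.437%, TTTGAA in 16.3%, TAATTG in 7.34%, CACGTG in 6.05%, CAGGTG in 17.1% and TGACGTCA in 1.62%. Of the 8 members with a promoter sequence, 4 held CCAAT, which were Chek2, Atm, Trp53 and Brca1. Hormad1 alone among the 8 held GGCGGGAA or CACGTG, and no member held another of the motifs. The ratio of observed to expected CpG ranged from 0.412 in Hormad2 to 0.948 in Chek1, with a median of 0.378 over all promoters. These are matches of letters, and binding was not measured.

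The 10 genes covered a wide range of levels (see the plot of levels by sample). Chek1 was the most abundant by far with a mean of 1009 normalized CPM over the 9 samples, above 98.7% of the tested genes. Brca1 (83.99), Trp63 (60.7) and Atr (49.0) followed, then Atm (16.7), Hormad2 (16.0) and Hormad1 (14.4). Trp53 (6.51), Chek2 (4.999) and H2afx (1.25) were at the low end. A gene is named as called where the unadjusted p of edgeR's quasi-likelihood test was below 0.05, and the adjusted p over all tested genes is given with the fold changes, which are on the log2 scale with their SE. The order within Atm, Hormad2 and Hormad1, and that between Trp53 and Chek2, was smaller than the spread between pools.

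**Figure D1:**
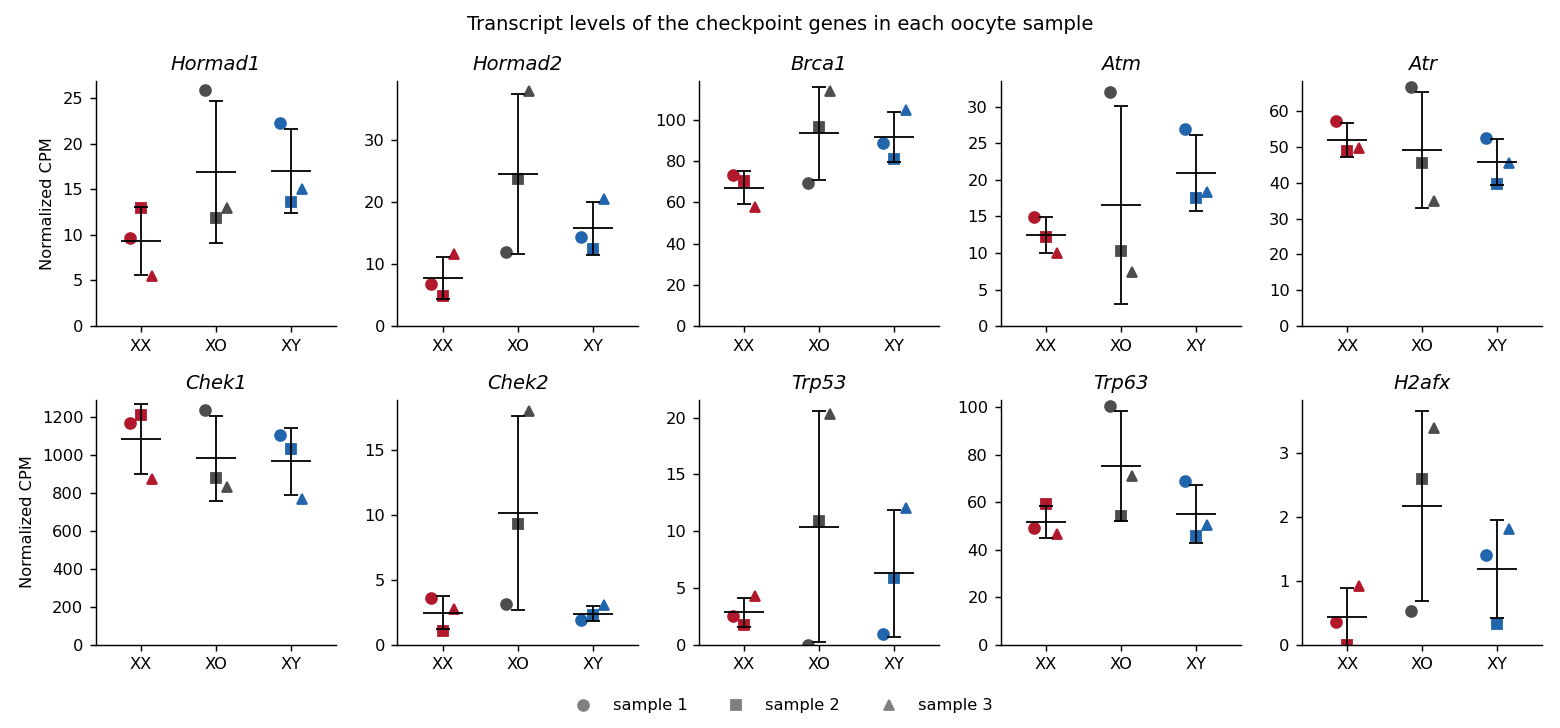
Normalized CPM (y axis, from 0) of the 10 genes in 3 XX, 3 XO and 3 XY pools, with 1 symbol per pool, and the mean and SD of each genotype as a line and bars. Hormad2 was at 4.90 to 11.6 in the XX pools and at 11.9 to 37.8 in the XO and XY pools, and Chek2 reached 9.31 in XO2 and 18.1 in XO3 and was at most 3.56 in the other pools.

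Among the genes of the unsynapsed axis, Hormad2 differed between genotypes. It was measured at 6.77, 4.90 and 11.6 normalized CPM in the XX pools, at 11.9, 23.8 and 37.8 in the XO pools, and at 14.4, 12.4 and 20.5 in the XY pools. Every XO and XY pool was above every XX pool, although the highest XX and the lowest XO pool nearly met. The mean ± SD was 7.75 ± 3.44, 24.5 ± 13.0 and 15.8 ± 4.24 for XX, XO and XY oocytes (n = 3 each).

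In the edgeR quasi-likelihood test the level of Hormad2 was lower in XX than in XO oocytes, with a log2 fold change of -1.65 ± 0.49 (SE, 95% interval -2.73 to -0.56), an unadjusted p of 0.00732 and an adjusted p of 0.203. Against XO and XY oocytes together it was -1.33 ± 0.44 (called, adjusted p = 0.461). The exact permutation test on the 3 XX and 6 other pools gave p = 0.0238, two-sided and unadjusted, where 0.0119 is the smallest p possible. Adjusted over the 10 members, this permutation p was 0.198. Against XY oocytes alone the log2 fold change was -1.02 ± 0.48 and not called (edgeR adjusted p = 0.902), and XY against XO oocytes was not called either (-0.63 ± 0.47, adjusted p = 0.629). Without XO1 the value against XO became -1.97 with an edgeR adjusted p of 0.00705. Without XX2 the comparison with XO and XY together was no longer called (-1.09), nor was it with the covariates of sva (-0.67). The comparison with XY was called with the covariates of sva (-0.71) and in limma on the batch-regressed values (-0.90).

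Hormad1, which acts with HORMAD2 on the axes, was measured at 9.62, 13.0 and 5.48 normalized CPM in XX, at 25.9, 11.9 and 13.0 in XO, and at 22.3, 13.7 and 15.1 in XY pools. The XX pools were all below the XY pools, but XX2 was level with XO3 and above XO2. The means were 9.35 ± 3.74, 16.9 ± 7.79 and 17.0 ± 4.63. The log2 fold change of XX oocytes was -0.86 ± 0.44 against XO (edgeR adjusted p = 0.318), -0.86 ± 0.43 against XY (adjusted p = 0.946) and -0.86 ± 0.39 against both (adjusted p = 0.502), and none was called. In limma on the batch-regressed values all 3 were called (-0.62, -0.73 and -0.67), and with the covariates of sva that against XY was (-0.69). The exact permutation test of XX against the 6 other pools gave an unadjusted two-sided p of 0.0476, 1 of 10 such tests. Adjusted over the 10 members, this permutation p was 0.198. XY and XO oocytes had nearly equal means, with a 95% interval of the log2 fold change from -0.98 to 0.98.

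Brca1, whose product is needed to load ATR on unsynapsed axes and acts in repair by recombination, was more even. It reached 73.0, 70.4 and 57.9 normalized CPM in XX, 69.4, 96.7 and 114 in XO, and 88.8, 81.1 and 105 in XY pools. The XX pools lay below all XY pools and below XO2 and XO3, and above XO1 in XX1 and XX2. XX oocytes differed by -0.48 ± 0.28 from XO (edgeR adjusted p = 0.367) and by -0.45 ± 0.28 from XY oocytes (adjusted p = 1.00), not called in either. In limma on the batch-regressed values Brca1 was called higher in XY than in XO oocytes (0.56), against -0.028 in edgeR. Without XO1, edgeR called Brca1 lower in XX than in XO oocytes (-0.65, adjusted p = 0.0854).

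H2afx, the gene of the histone variant that is phosphorylated at unsynapsed axes and breaks, had 26 UMIs in all and was not tested. The 3 XX pools together had 4 UMIs, the XO pools 12 and the XY pools 10, that is 0.423 ± 0.461, 2.16 ± 1.48 and 1.18 ± 0.766 normalized CPM. XX2 had no UMI, which allows up to 1.05 normalized CPM by counting error. A part of H2afx transcripts carries no poly(A) tail and the libraries were primed with oligo-dT, and the share that was missed was not tested.

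The kinases at the head of the pathway were not called by edgeR with genotype alone in the fit on all 9 pools. In limma on the batch-regressed values, Atr was called higher in XX than in XO oocytes (0.46), and Atm was called lower in XX than in XY (-0.57) and higher in XY than in XO oocytes (0.44), and with the covariates of sva Atm was called lower in XX than in XY (-0.69). Atr was measured at 57.3, 49.0 and 49.7 normalized CPM in XX, at 66.8, 45.5 and 35.0 in XO, and at 52.5, 39.7 and 45.6 in XY pools, and the genotypes overlapped. Its 95% intervals of the log2 fold change were -0.58 to 0.74 for XX against XO and -0.48 to 0.84 for XX against XY oocytes. Atm was at 14.96, 12.3 and 10.1 in XX, at 32.1, 10.3 and 7.34 in XO, and at 27.0, 17.6 and 18.4 in XY pools.

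The XY pools were all above the XX pools for Atm, but the XO pools spread from below to above both. XX against XY oocytes gave -0.75 ± 0.51 (edgeR adjusted p = 1.00), and XX against XO oocytes -0.42 ± 0.51 (adjusted p = 0.662). The latter turned to 0.48 without XO1 (adjusted p = 0.382). Without XO1 Atm was called higher in XY than in XO oocytes by edgeR, with a log2 fold change of 1.23 (adjusted p = 0.0472).

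The checkpoint kinases behaved differently from each other. Chek1, the kinase downstream of ATR, which also holds the cell cycle in check, was measured at 1165, 1208 and 872 normalized CPM in XX, at 1236, 876 and 827 in XO, and at 1101, 1028 and 766 in XY pools. The genotypes overlapped throughout. It was not called, at 0.14 ± 0.34 for XX against XO (edgeR adjusted p = 0.836, 95% interval -0.63 to 0.91) and 0.16 ± 0.34 for XX against XY oocytes (adjusted p = 1.00, 95% interval -0.61 to 0.94). In limma on the batch-regressed values, Chek1 was called higher in XX than in XO oocytes (0.49) and than in XO and XY oocytes together (0.40). With 1465 to 3449 UMIs per pool, counting error was not the limit for this gene.

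Chek2, the kinase downstream of ATM, was low in most pools. It was measured at 3.56, 1.05 and 2.74 normalized CPM in XX, at 3.11, 9.31 and 18.1 in XO, and at 1.86, 2.28 and 3.02 in XY pools, which rest on 3 to 32 UMIs per pool. XO2 and XO3 were above every other pool, and XO1 was above all XY pools by a small margin but below XX1. Chek2 was called in edgeR, with -2.02 ± 0.65 for XX against XO oocytes (an unadjusted p of 0.0115, adjusted p = 0.203) and -2.04 ± 0.65 for XY against XO oocytes (an unadjusted p of 0.0113, adjusted p = 0.485). Between XX and XY oocytes it was 0.02 ± 0.69, with a 95% interval of -1.54 to 1.58.

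Without XO1 both calls of Chek2 had larger fold changes (-2.45 with adjusted p = 0.00741 for XX against XO, and -2.46 with adjusted p = 0.0141 for XY against XO, edgeR), and without XO3 Chek2 no longer passed the filter on low counts. Hscb, which faces Chek2 across its promoter, was measured at 4.30 ± 1.14, 7.37 ± 3.57 and 5.19 ± 0.552 normalized CPM in XX, XO and XY oocytes. Within XO its highest pool was also XO3 (10.7), with 7.75 in XO2 and 3.62 in XO1.

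The p53 family members differed in level and in spread. Trp53 was measured at 2.49, 1.75 and 4.27 normalized CPM in XX, at 0, 10.9 and 20.3 in XO, and at 0.930, 5.86 and 12.1 in XY pools. XO1 had no UMI, which allows up to 1.55 normalized CPM by counting error, while XO3 had the highest level of all pools. XX oocytes differed by -1.83 ± 1.11 from XO (edgeR adjusted p = 0.380) and by -1.16 ± 1.10 from XY oocytes (adjusted p = 1.00), not called in either. Without XO1 it was -2.42 against XO oocytes and was called (adjusted p = 0.0293 by edgeR), and without XO3 it was -0.91 and not called. In limma on the batch-regressed values the sign turned and Trp53 was called higher in XX than in XO (1.48) and higher in XY than in XO oocytes (1.99).

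Trp63 was higher than Trp53 in every pool. It was measured at 49.2, 59.2 and 46.6 normalized CPM in XX, at 100.4, 54.3 and 71.1 in XO, and at 68.8, 45.9 and 50.4 in XY pools, and the genotypes overlapped. Neither comparison of XX oocytes was called, at -0.54 ± 0.31 against XO (edgeR adjusted p = 0.351) and -0.09 ± 0.31 against XY oocytes (adjusted p = 1.00, 95% interval -0.78 to 0.60). The markers of basal epithelium, the other tissue known for p63, were at or near 0 (2 of 5 in the files, Krt5 and Krt14 not listed, with a sum of 0 to 1.13 normalized CPM). Gene counts do not separate the TA and the ΔN forms of p63.

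**Figure D2:**
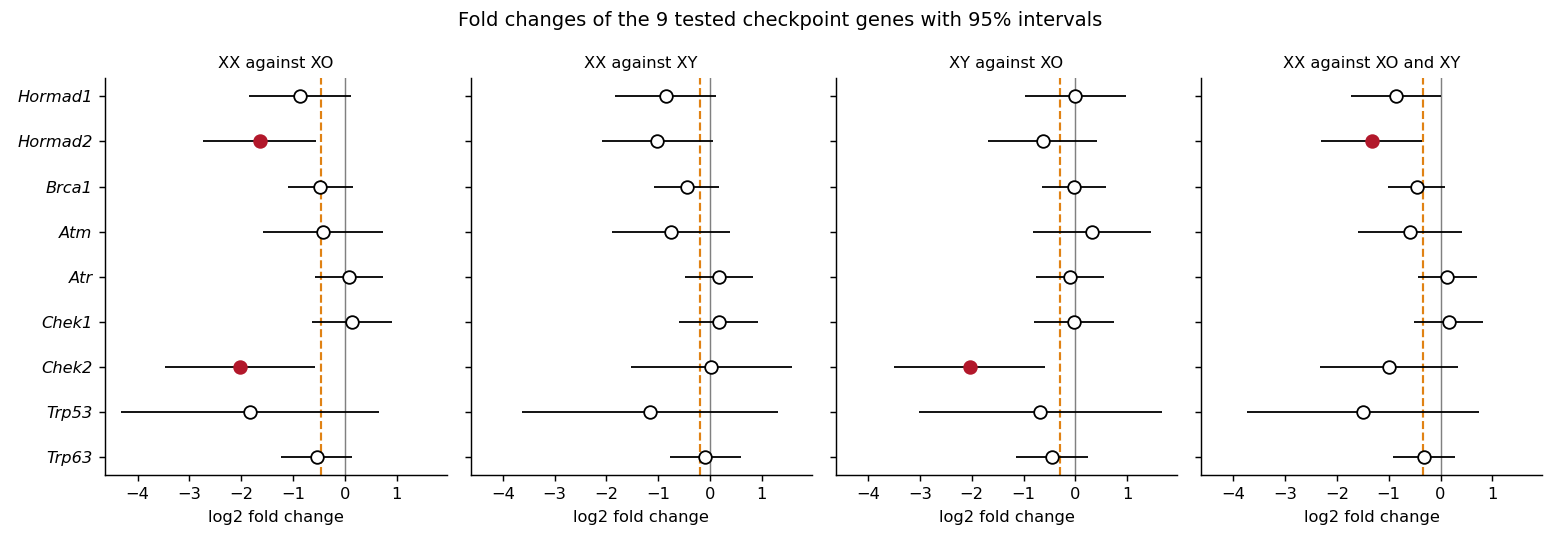
The log2 fold change (x axis) of the 9 tested genes in 4 comparisons, with 95% intervals as lines, filled symbols for unadjusted p below 0.05 in edgeR, a grey line at 0 and a dashed line at the median of the 10993 tested genes. Hormad2 and Chek2 were called between XX and XO, Chek2 between XY and XO, and Hormad2 between XX and the other oocytes together.

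In counts, 2 of 9 tested members were called lower in XX than in XO oocytes at an unadjusted p of 0.05, beside 18.1% of the 10993 tested genes called in either direction and 16.7% called lower. Between XX and XY oocytes 0 of 9 were called by edgeR, beside 5.8% called in either direction and 4.39% called lower, and DESeq2 also called 0 under both scalings. Between XY and XO oocytes 1 of 9 was called, lower in XY, beside 9.93% in either direction and 8.24% lower, and between XX and the other oocytes together 1 of 9, lower in XX, beside 9.92% and 8.32%. None of these calls passed an adjusted p of 0.05 over all genes, which 0%, 0.0819%, 0.0364% and 0.0182% of all tested genes did in the 4 comparisons. The median log2 fold change of the 9 members was -0.54 for XX against XO, -0.45 for XX against XY and -0.097 for XY against XO oocytes. The 3 comparisons of genotypes share their samples, and their counts are not independent.

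The spike-in factors were lowest in the XO pools, and the whole distribution of fold changes was shifted. The median log2 fold change of all tested genes was -0.46 for XX against XO, -0.19 for XX against XY, -0.30 for XY against XO and -0.34 for XX against both, whereas with TMM scaling on the genes it was -0.11, -0.0053, -0.13 and -0.068. The calls over all genes then split into 481 higher and 864 lower in XX against XO, in place of 154 and 1832, and into 293 and 272 in XX against XY, in place of 155 and 483. Relative to these medians, Hormad2 was at -1.19 in XX against XO and at -0.99 in XX against both on the log2 scale, and Chek2 at -1.56 in XX and at -1.74 in XY against XO oocytes. Brca1 was near the median in XX against XO oocytes (-0.019), as were Atm (0.036) and Trp63 (-0.086). Atr and Chek1 were above it, at 0.54 and 0.60. The factors did not follow the share of spike-in UMIs, which was lowest in XX3 (0.204%, factor 1.25) and highest in XY1 (0.862%, factor 1.01), so that they are no measure of RNA per pool. In pools, fewer intact oocytes and less RNA per oocyte cannot be told apart.

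By overlap of pools alone, 4 of 9 tested members (Hormad1, Hormad2, Brca1 and Atm) had all XX pools below all XY pools, beside 15.8% of all tested genes without overlap in either direction and 11.7% in this direction. For XX against XO oocytes it was Hormad2 alone, beside 16.4% and, in its direction, 13.6%, and for XY against XO oocytes Chek2 alone, beside 10.2% and 6.34%. Hormad2 was also the single member in which XX was separated from XO and XY pools, beside 5.61% and 4.32%.

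Without XO1 the numbers of called members became 4 of 9 for XX against XO (Hormad2, Brca1, Chek2 and Trp53), 3 of 9 for XX against XY (Hormad1, Hormad2 and Atm) and 3 of 9 for XY against XO oocytes (Hormad2 and Chek2 lower and Atm higher in XY). The shares of all 11590 genes then tested were 36.9%, 11.1% and 32.1%. For XX against both they were 4 of 9 (Hormad2, Brca1, Chek2 and Trp53), beside 28.4%. An adjusted p of 0.05 in edgeR was then passed by Hormad2, Chek2 and Trp53 between XX and XO oocytes, beside 25.2% of all genes, by Chek2 and Atm between XY and XO oocytes, beside 14.2%, and by Hormad2 in XX against both, beside 6.51%. Between XX and XY oocytes no member passed it, beside 0.414%. Each pool was left out in turn, and XO1 is singled out because its values stood apart from those of XO2 and XO3. By correlation with the XX pools, XO3 was no nearer than XO1. The fit without XO1 rests on 2 XO pools and is not a cleaner result by these values.

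The members fell into 2 sets by the pool in which they were highest (see the heat map). In Hormad1, Atm, Atr, Chek1 and Trp63 the highest XO pool was XO1 and the highest XY pool was XY1. In Hormad2, Brca1, Chek2, Trp53 and H2afx it was XO3 and XY3. Of all tested genes, 30.6% were highest in XO1 and XY1 and 37.7% in XO3 and XY3, 68.3% in all beside 10 of 10 members. XO1 and XY1 were also the pools with the most mitochondrial transcripts and the lowest sums of oocyte markers, and the part of these in the levels was not tested. Endothelial, blood and immune markers were highest in XO2 and XO3, at 110 and 134 against 16.6 to 59.2 normalized CPM in the other pools, of which Pecam1 made up 109 and 132. Kdr and Cd68 were at most 1.69, Cdh5 was at 5.11 in XY1 and at 0.517 to 2.41 in the other pools, Ptprc and the haemoglobin genes were not listed, and their part was not tested.

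**Figure D3:**
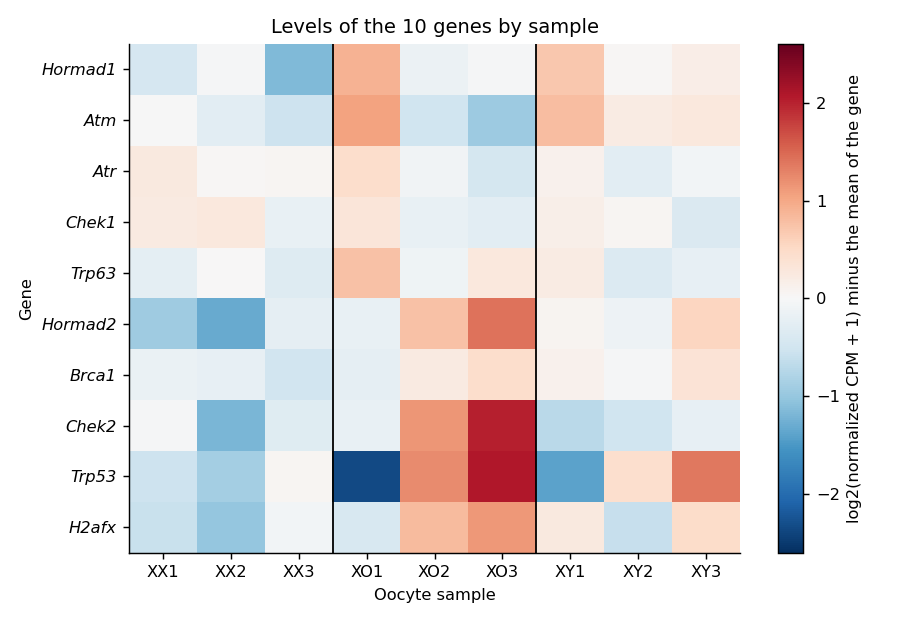
Heat map of log2(normalized CPM + 1) of the 10 genes minus the mean of each gene, in 9 pools (columns). In XO and XY oocytes, the upper 5 genes were highest in pool 1 and the lower 5 in pool 3.

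Pearson coefficients between members over the 9 pools are given as a description, since all genes of a pool share its library and its spike-in factor. They were 0.81 between Hormad2 and Chek2, 0.78 between Hormad2 and Brca1 and 0.74 between Hormad1 and Atm, whereas they were -0.88 between Chek1 and Trp53 and -0.86 between Atr and Trp53. Hormad1 and Hormad2 had a coefficient of 0.13. Among 7269 tested genes averaging 10 normalized CPM or more, those most like Hormad2 were Tet1 (0.98) and Nsd1 (0.98), and Arid4a (0.97) was among those most like Hormad1. Aldh2 (0.96) and Aebp2 (0.95) were nearest to Brca1, Aste1 (0.98) and Zfp763 (0.98) to Atm, and Phospho2 (0.99) and Gm13453 (0.96) to Atr. For Chek1 they were Gm45277 (0.97) and Tmem29 (0.96), and for Trp63 Dcaf13 (0.98) and Elmod2 (0.97).

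Other genes of the pathway were described by role. Of 72 listed genes, 69 were in the files and 53 were tested. Between XX and XO oocytes 1 of 53 was called higher and 11 lower in XX, 22.6% in all beside 18.1% of all tested genes. Between XX and XY oocytes 2 were higher and 4 lower in XX (11.3% beside 5.8%), and between XY and XO oocytes 2 were higher and 3 lower in XY (9.43% beside 9.93%). With the replicate number as a block, by which XX, XO and XY pools of the same number were paired, the last count was 11. The median log2 fold changes of the 53 genes were -0.38, -0.20 and -0.21, close to those of all genes (-0.46, -0.19 and -0.30). None of the pathway genes named here passed an adjusted p of 0.05 with all 9 pools.

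Damage sensors bind broken or single-stranded DNA. Of 12 tested, 2 were lower in XX than in XO, 1 was lower in XX than in XY and 0 were called between XY and XO oocytes by edgeR at an unadjusted p of 0.05, beside 16.7%, 4.39% and 9.93% of all tested genes. Rad50, a subunit of the complex that activates ATM and the most abundant of the list, had 91.5, 84.7 and 96.0 normalized CPM in XX, 154, 138 and 147 in XO, and 115, 88.2 and 110 in XY pools. The XO pools were all above the others and close together, also in XO1. XX against XO oocytes gave -0.69 ± 0.25 for Rad50 (called, edgeR adjusted p = 0.223), beside a median of -0.46 over all tested genes. Rpa1, which coats single-stranded DNA, was at 34.9 ± 8.18, 87.8 ± 48.3 and 43.3 ± 13.2 in XX, XO and XY oocytes (-1.33 ± 0.46 for XX against XO, called, edgeR adjusted p = 0.214). Rad9b, a subunit of a clamp that helps to activate ATR, was lower in XX than in XY oocytes (9.25 ± 1.44 against 19.1 ± 5.40, log2 fold change -1.04 ± 0.33, edgeR adjusted p = 0.603).

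Chromatin mediators spread the damage signal or work with BRCA1. Of 17 tested, 6 were lower and 1 higher in XX than in XO oocytes, 41.2% beside 18.1% of all tested genes. Paxip1 was at 3.54 ± 0.927 in XX and 9.16 ± 4.202 in XO oocytes (-1.35 ± 0.45, edgeR adjusted p = 0.208). Abraxas1, which links BRCA1 to ubiquitinated chromatin, was at 2.97 ± 0.936 and 11.8 ± 8.55 (-1.96 ± 0.69, edgeR adjusted p = 0.217), and both were called. The most abundant, Rif1, was at 233 ± 40.3, 334 ± 206 and 205 ± 50.6 in XX, XO and XY oocytes and was not called, with 573 in XO1.

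Brcc3 went the other way. It encodes a deubiquitinase of the same BRCA1 complex as Abraxas1, and it is X-linked, as is 1 other gene of the 69, Scml2. It was measured at 78.7, 76.7 and 65.2 normalized CPM in XX, at 45.05, 47.6 and 48.55 in XO, and at 45.55, 50.1 and 40.15 in XY pools. The XX pools were all above the others, and the XO and XY pools lay together. XX oocytes were called higher by 0.64 ± 0.24 than XO (edgeR adjusted p = 0.227), by 0.70 ± 0.24 than XY (adjusted p = 0.639) and by 0.67 ± 0.20 than both (adjusted p = 0.411).

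Meiotic axis and silencing factors were the list with most calls between XX and XY oocytes, 3 lower and 1 higher in XX of 6 tested, beside 5.8% of all genes. Ankrd31, needed for double strand break formation in the region shared by X and Y, was measured at 2.85, 2.101 and 2.13 normalized CPM in XX, at 9.32, 5.17 and 3.95 in XO, and at 12.1, 7.16 and 6.64 in XY pools. Every XX pool was below every other pool. It was called at -1.84 ± 0.45 against XY (edgeR adjusted p = 0.384) and at -1.37 ± 0.47 against XO oocytes (adjusted p = 0.211). Without XO1 the latter was -0.95 and not called.

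Trip13, the ATPase that removes HORMAD proteins from synapsed axes, was at 8.24 ± 0.568, 10.1 ± 0.669 and 16.9 ± 3.47 in XX, XO and XY oocytes. It was called lower in XX than in XY (-1.03 ± 0.29, edgeR adjusted p = 0.473) and higher in XY than in XO oocytes (0.74 ± 0.29, adjusted p = 0.485), and the latter was not called without XO1 (0.72). Mei1, needed for break formation, was likewise higher in XY, at 11.3 ± 1.46 against 4.79 ± 2.36 in XX (edgeR adjusted p = 0.646) and 4.75 ± 1.755 in XO oocytes (adjusted p = 0.485). The X-linked Scml2, named after its values were seen, was higher in XX than in XY oocytes (74.5 ± 9.04 against 41.6 ± 12.8, edgeR adjusted p = 0.799). Setdb1, a histone methyltransferase of the silenced X and Y and the most abundant of the list, was not called and had 93.5 ± 16.95, 85.7 ± 31.8 and 78.1 ± 27.9 in XX, XO and XY oocytes.

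Among kinase targets and opposing enzymes, 2 of 9 were lower in XX than in XO oocytes and 1 was lower in XY than in XO oocytes, beside 16.7% and 8.24% of all tested genes. Cdc25b, a phosphatase that CHK1 and CHK2 restrain, was measured at 1.07, 1.05 and 3.96 normalized CPM in XX, at 3.62, 16.0 and 30.5 in XO, and at 5.58, 3.26 and 5.43 in XY pools. XO2 and XO3 were above every other pool, as in Chek2, but also as in Rpa1, Csnk1e and the oocyte markers Gdf9 and Zp1. The share of all tested genes with this order was not counted. It was called at -2.98 ± 0.78 for XX against XO (edgeR adjusted p = 0.203) and at -1.80 ± 0.72 for XY against XO oocytes (adjusted p = 0.489). Csnk1e, a casein kinase, was at 7.75 ± 3.37, 35.2 ± 25.2 and 9.60 ± 9.44 in XX, XO and XY oocytes, whereas Csnk1a1, the most abundant of the list, was not called.

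Of the regulators and targets of the p53 family, 22 were listed, 21 were in the files and 9 were tested, and 0 were called by edgeR in any of the 4 comparisons at an unadjusted p of 0.05. Mdm4, which binds and restrains p53, was the most abundant of all pathway genes, with means of 4967 ± 1009, 6448 ± 4656 and 4947 ± 2516 normalized CPM in XX, XO and XY oocytes, and with 11822 in XO1 and 7837 in XY1. The detection of p53 targets was uneven. Over the 9 pools Rrm2b averaged 96.8 normalized CPM, Trp53inp1 60.9, Mdm2 40.3, Aen 14.9 and Ccng1 7.28. In contrast, the mean was 0.0914 normalized CPM for Cdkn1a, 0.0731 for Bbc3, 0.815 for Pmaip1 and 0.0362 for Bax, and none of these 4 passed the filter on low counts. These 9 targets were named after their values were seen.

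**Figure D4:**
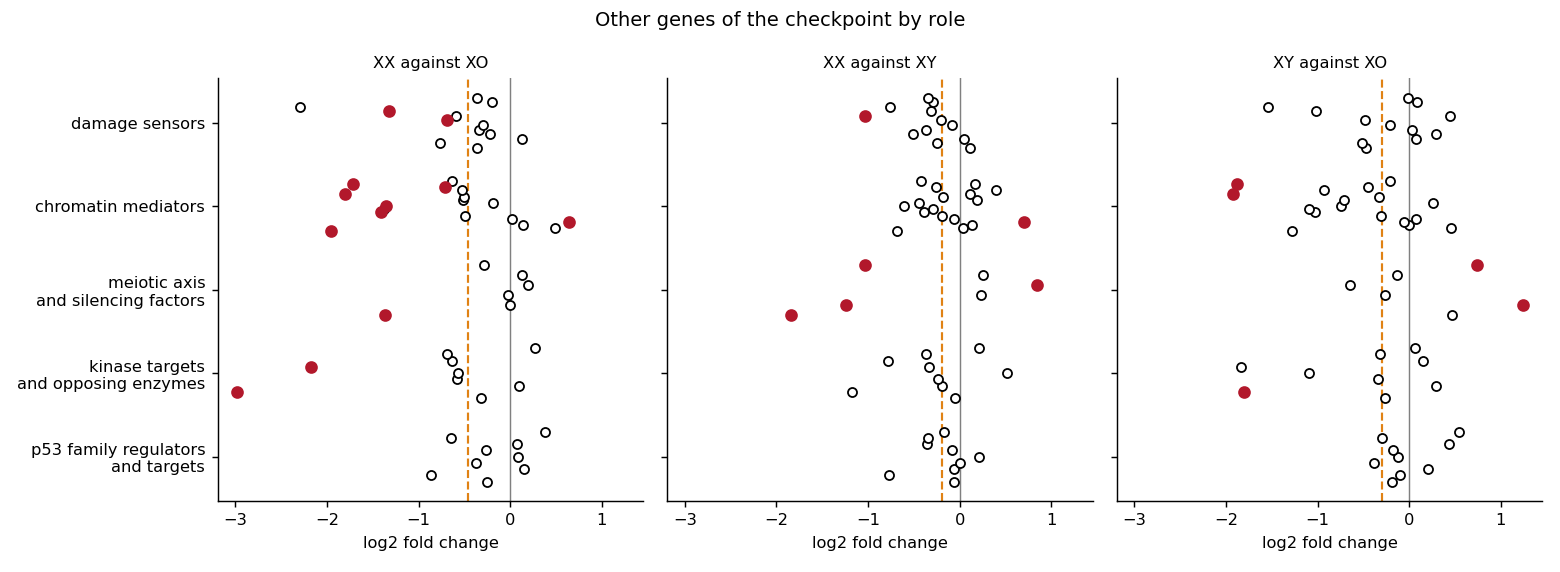
The log2 fold change (x axis) of the 53 tested pathway genes by role list in 3 comparisons, 1 symbol per gene, filled for unadjusted p below 0.05 in edgeR, with a grey line at 0 and a dashed line at the median of all tested genes. Between XX and XO oocytes 12 genes were called, and between XX and XY oocytes 4 of the 6 calls were meiotic axis and silencing factors.

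The calls of Hormad2 and Chek2 were followed across the ways of processing. The log2 fold change of Hormad2 between XX and XO oocytes stayed below 0 in every setting, from -2.06 without XX3 to -0.54 in limma on the batch-regressed values, and it was called in every setting but that with the covariates of sva (-0.64). For Chek2 between XX and XO oocytes it was -0.42 with the covariates of sva and -0.54 in limma, and between XY and XO oocytes -0.92 and -0.61, and these 4 values were not called. The covariates of sva were estimated from variation between pools beyond genotype, but they were not made independent of genotype. With them the median log2 fold change of all tested genes was 0.0085 for XX against XO, in place of -0.46. For XY against XO it was 0.015, in place of -0.30. The authors had regressed batch effects out of the values used in limma, where these medians were 0.28 and 0.32.

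**Figure D5:**
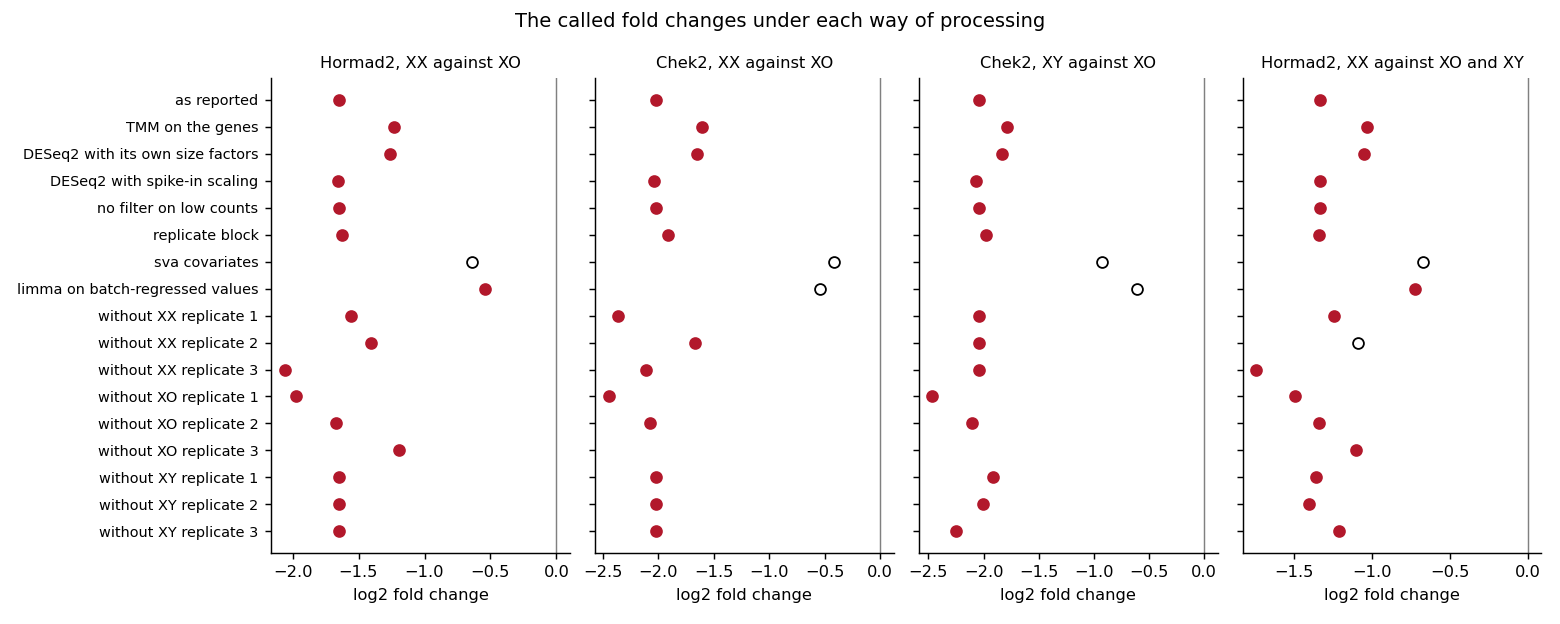
The log2 fold change (x axis) of the 4 called values under each way of processing (y axis), filled for unadjusted p below 0.05. All values were below 0, those with sva covariates and in limma on batch-regressed values (-0.42 to -0.92) were nearest to 0, and Chek2 has no value without XO3.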

How the data were processed

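RNA of 9 pools of mouse oocytes, 3 each of XX, XO and XY, was analysed. The authors aligned Smart-seq3 reads to GRCm38 with Hisat2 (version not given in the sources used here) in stranded mode, counted 5′ UMIs and deposited the UMI counts of 28052 genes with 79 ERCC spike-ins. Their deposited normalized CPM is a spike-in scaled signal and was recomputed from the counts. Their deposited log2 values, with batch effects regressed out, served as an alternative. Spike-in factors were TMM factors of the ERCC counts.

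Counts were tested with edgeR 4.0.16 (quasi-likelihood, two-sided, 1 mean per genotype over all 9 samples) on 10993 genes kept by filterByExpr. A call is an unadjusted p below 0.05, with Benjamini-Hochberg values over all tested genes beside it. The study used this threshold in limma with sva covariates, which the main edgeR fit did not include. The paper describes many autosomal transcripts as reduced in XO oocytes relative to XX and XY. The main fit leaned the other way, calling 154 genes higher and 1832 lower in XX against XO. For XY against XO it called 186 and 906. In limma on batch-regressed values these were 3972 and 814, and 4117 and 608. The cause was not tested. Fold changes in the text are on the log2 scale with the SE. Single values used exact permutation tests on log2(normalized CPM + 1). Alternatives used TMM, DESeq2 1.42.0, sva 3.50.0 with 2 surrogate variables, limma 3.58.1, no filter, a replicate block and leaving out each pool. The code was tested on simulated data with R 4.3.3. Deviations from genotype means correlated at 0.830, 0.278 and 0.773 between XO and XY pools of the same number. Only the replicate block used such pairs. The main edgeR fit and the permutation tests treated all 9 pools as independent.

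All 10 members were named. From each role list, up to 3 called genes with the smallest p and the most abundant gene were named, and for members with at least 10 normalized CPM the 2 genes of highest Pearson coefficient, of which 1 is not reported here. Members and lists were chosen with earlier results of these data known. Limits of 0 counts (3 UMIs) cover counting error only, and the 95% intervals of fold changes include the spread between pools. No sample was left out.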

Additional observations from a re-analysis of the deposited data

How the results depend on the processing

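Members called were 2 for XX against XO, 0 for XX against XY, 1 for XY against XO and 1 for XX against both. Without a filter on low counts they were 4, 2, 1 and 3, with sva covariates 0, 3, 0 and 0, and in limma on batch-regressed values 5, 3, 3 and 5, of which 3, 0, 3 and 2 were higher in the first group (0 in edgeR in each). With DESeq2 on spike-in scaling the last was 2. With the replicate block they were 2, 2, 1 and 2, and Hormad1 and Hormad2 were then called between XX and XY. That block also paired the XX pools with the XO and XY pools of the same number, although the deviations of such pairs correlated from -0.447 to 0.726. Leaving out each pool gave 1 to 4, 0 to 3, 0 to 3 and 1 to 4. The highest were without XO1, and without XO3 Chek2 was not tested and no member was called between XY and XO. Pathway genes called were 12, 6, 5 and 6. With TMM the first was 6, with DESeq2 on spike-in scaling the third was 8, without a filter the third and the last were 13 and 10, and with the replicate block 11 and 10. With sva covariates the first was 4 and the third 10, and limma gave 25, 13, 21 and 15. The limma calls turned in direction, with 22 of 25 higher in XX against XO (1 of 12 in edgeR) and 19 of 21 higher in XY against XO (2 of 5 in edgeR). Leaving out each pool gave 3 to 20, 3 to 6, 0 to 17 and 2 to 19. The highest were without XO1, and for XX against XY also without XO3. For XX against XO the count was 3 without XX1 or XX2 and 4 without XO3. For XY against XO it was 0 without XO3, 1 without XY1 or XY2, 3 without XO2 and 10 without XY3, for XX against XY it was 3 without XX2, and for XX against both it was 2 without XX2 and 3 without XX3. The causes were not tested.

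Signs turned for values that edgeR had not called. Of the turned values, limma called Trp53 in XX against XO and in XY against XO and Brca1 in XY against XO. With TMM, Trp63 was 0.10 for XX against XY, and Brca1, Atr and Chek1 were 0.17, 0.028 and 0.14 for XY against XO on the log2 scale. With DESeq2 and its own size factors the same values were 0.080, 0.15, 0.0077 and 0.12, and with spike-in scaling Hormad1 was -0.00070 for XY against XO. With sva covariates, Trp53 was 0.35 for XX against XO and 1.14 for XY against XO, Trp63 was 0.11 for XX against XY, Hormad2 and Brca1 were 0.070 and 0.28 for XY against XO, and Chek2 was 0.046 for XX against both. In limma, Brca1 and Trp53 were 0.25 and 1.48 for XX against XO, Trp63 was 0.069 for XX against XY, Hormad2, Brca1, Atr, Chek1 and Trp53 were 0.36, 0.56, 0.13, 0.18 and 1.99 for XY against XO, and Trp53 was 0.49 for XX against both. Leaving out each pool gave -0.77 to 0.48 for Atm and -0.11 to 0.37 for Atr in XX against XO, and -0.32 to 0.37 for Chek2 and -0.21 to 0.10 for Trp63 in XX against XY. In XY against XO it gave -0.23 to 0.44 for Hormad1, -0.20 to 0.14 for Brca1, -0.021 to 1.23 for Atm, -0.29 to 0.19 for Atr, -0.13 to 0.18 for Chek1 and -1.53 to 0.25 for Trp53. The exact permutation p of Hormad1, XX against the 6 other pools, was 0.0476 and became 0.0714 with a pseudocount of 5 and 0.238 with TMM. Depth limited Chek2, Trp53 and H2afx, with at most 40 UMIs in a pool.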
